A study of Mus musculus with 2 samples.

Results

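Wnt ligands, their receptors, their secreted inhibitors and a small set of canonical targets were followed in prostaspheres with and without Sox9. Members were chosen by gene symbol alone: the numbered Wnt, Fzd, Sfrp and Dkk genes, Lrp5 and Lrp6, Wif1, the R-spondins Rspo1, Rspo2 and Rspo3, and the targets or feedback genes Axin2, Lef1, Tcf7, Nkd1 and Nkd2. The array held 48 such genes of 27827 named genes, that is 19 Wnt ligands, 12 receptors, 9 secreted inhibitors, 3 R-spondins and 5 targets or feedback genes. Prostaspheres are spherical colonies that prostate epithelial cells form in matrigel, and RNA from them was hybridized to 2 Agilent whole mouse arrays, each with one RNA labeled with Cy5 and one with Cy3. On the first array (genotype comparison), SOX9 wild type cells treated with tamoxifen (TAM) were labeled with Cy5 and TAM-treated ER-Sox9flox/flox cells with Cy3. On the second array (treatment comparison), both RNAs came from ER-Sox9flox/flox cells, with vehicle (Cy5) or with TAM (Cy3). In these cells both Sox9 alleles are floxed and TAM switches on a Cre expressed from the ubiquitous Rosa26 locus. TAM can thus delete Sox9 in any cell type present, and how complete the deletion was in each was not measured. All 4 RNAs were of C57/Bl6J background, from cells kept 6 days with dihydrotestosterone and then 6 days with 5 µM TAM or vehicle. The labels place the source as urogenital sinus epithelium at 16 days post-conception, whereas the methods describe adult prostate for the prostasphere assay. Whether animals were pooled is not given in the sources used here. The genotype label reads Sox9 null on either channel of the second array, where only the treatment label separates the RNAs. Throughout, a log2 ratio is Sox9-expressing over Sox9-deleted RNA, and n = 2 counts the arrays.

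Wnt proteins are secreted lipid-modified ligands that bind Frizzled (Fzd) receptors together with the co-receptors Lrp5 and Lrp6. In the canonical branch this stabilizes β-catenin, which acts with Tcf/Lef factors on targets such as Axin2, while other Wnts act through Frizzled on cell polarity without β-catenin. Sfrp and Wif1 proteins bind Wnts outside the cell, Dkk1 blocks the co-receptors, and R-spondins strengthen the signal through Lgr receptors. In the developing prostate, Wnt ligands and inhibitors are made by epithelium and mesenchyme and take part in budding and branching.

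For 3 of the genes on which the results turn, the first 30 of the 60 bases of the probe are shown, 5′ to 3′, because they name the stretch of transcript that was measured. In the coordinates of the array annotation, whose genome build is not given in the sources used here, the Fzd6 probe lies at chr15:38869107-38869166, the Wnt10a probe at chr1:74850633-74850692 and the Wnt7a probe at chr6:91314653-91314712.
Fzd6: ggccgagctgtcgattccccttttaagtgt
Wnt10a: tttcacttaacagatatttatttttgcgct
Wnt7a: cctcagcggtgggtcagtcagtgtctcaca
The longest run of identical bases shared with a probe of any other gene on the array was 13 for Fzd6 and Wnt10a and 16 for Wnt7a. Whole transcripts of other genes were not compared, so that hybridization of these to the probes was not tested.

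Sox9 itself was read first. Its brightest probe, on chromosome 11, gave a brightness of 1634 in wild-type, 253 in the deleted cells of the same array, 1198 in the vehicle-treated floxed cells and 232 in the deleted cells of the second array. The mean log2 ratio was 2.53 ± 0.23 (SD, n = 2), and a second probe gave 1.22 ± 0.07. The other, more distal probe went against the labels with -1.11 ± 0.16. It was at 106 and 96.3 in the Sox9-expressing RNAs and at 211 and 225 in the deleted RNAs, and why it differs was not tested. Of 41174 probes, between 53.9% and 56.2% were well above background per RNA, and 0 spots were saturated. Epithelial keratins were measured well above background in each RNA, whereas the prostate secretory marker Pbsn was in none of the 4. The 10 fibroblast markers were likewise above background in all 4 RNAs, so that the spheres labeled as epithelium also held stromal transcripts. Because the RNA is from whole spheres, fewer cells of a type and less RNA per cell cannot be told apart. Both arrays carry the Sox9-expressing RNA in Cy5 with 0 dye swaps, so that dye bias and a difference with Sox9 cannot be told apart. The RNAs of the first array also differ in mouse line, and those of the second in exposure to TAM.

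The Wnt genes as a group lay close to equality in the genotype comparison and were shifted higher with Sox9 in the treatment comparison. A small number stood further from equality. Of the 48 members, 30 were well above background in all 4 RNAs, 2 in 3 RNAs, 2 in 1 RNA and 14 in none, and 32 passed the filter (well above background in the Sox9-expressing RNA of each array, or in the deleted RNA of each). The filter can favor genes that are high in one class of RNA. At an adjusted p under 0.05 in limma, with Benjamini-Hochberg adjustment over 22731 probes, 0 of the 32 passed, where 0.0132% of the 15120 genes tested did. At an unadjusted p under 0.05, limma gave 9 members (6 higher and 3 lower with Sox9), which is 28.1% of the 32 against 19.5% of all genes tested. The methods' t-test gave 0 probes after adjustment. The mean log2 ratio of the members had a median of 0.11, where that of all genes tested was 0.003. By array, the members had a median of 0.03 (genotype comparison) and 0.24 (treatment comparison), against -0.009 and 0.01 for all genes tested. The members' median absolute log2 ratios were 0.145 and 0.299, against 0.119 and 0.157 for all genes tested. The 2 arrays gave the same direction for 19 of the 32 members (59.4%, against 67.6% of all genes tested), higher for 15 and lower for 4, and opposite directions for 13.

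**Figure D1:**
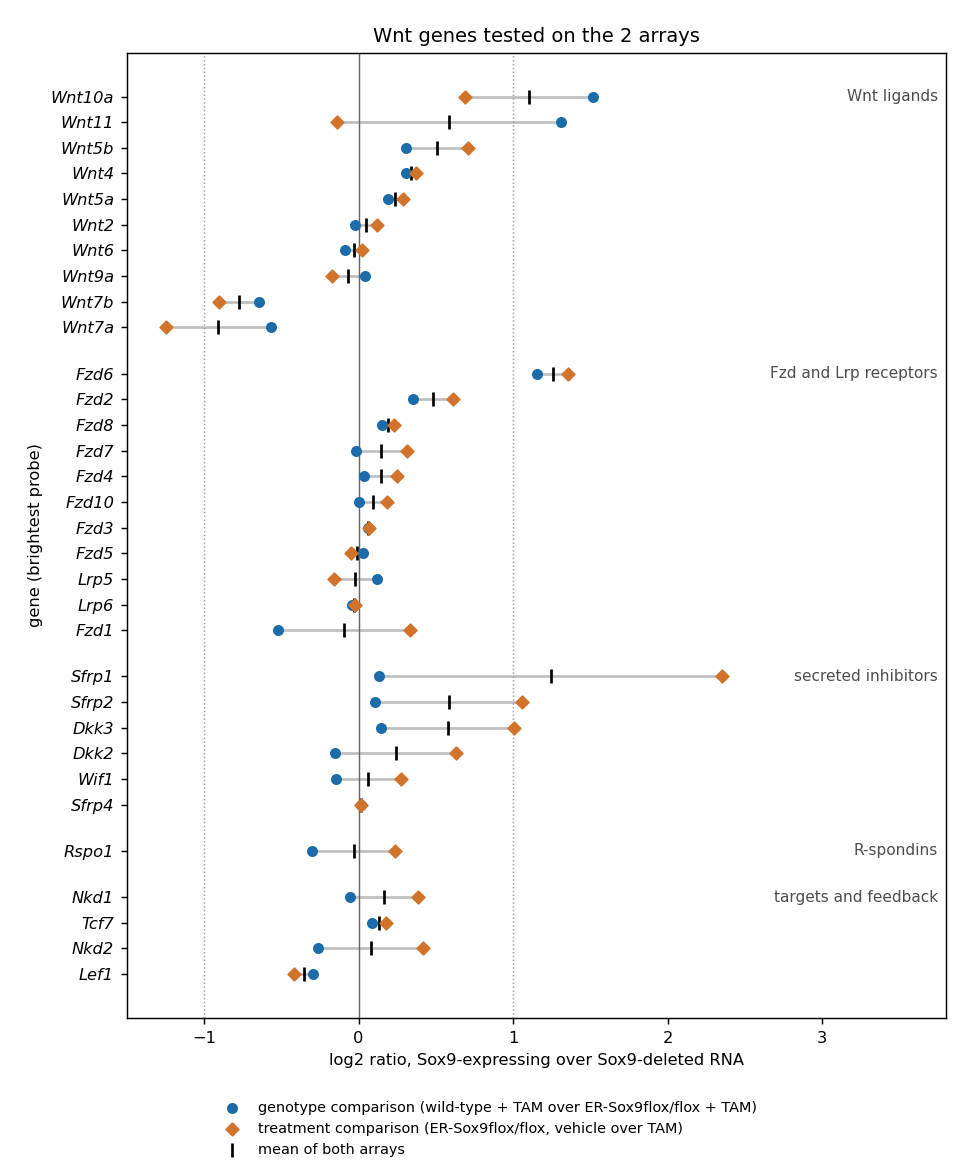
Log2 ratio (x axis) of the 32 tested Wnt genes (y axis, by role) in the genotype comparison (circles) and the treatment comparison (diamonds), with the mean of the 2 arrays as a black tick; dotted lines mark a 2-fold difference. Fzd6 lies beyond 1 on both arrays, Wnt7a and Wnt7b lie lower on both, and Sfrp1, Sfrp2 and Dkk3 lie beyond 1 in the treatment comparison alone.

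Fzd6 was the 1 member that differed at least 2-fold, and the same way, on both arrays, which is 3.12% of those tested against 0.536% of all genes. A log2 ratio of at least 0.5 on both arrays was found for 2 members higher with Sox9, Fzd6 and Wnt10a, 6.25% against a background of 1.88%. The same size in the other direction was found for Wnt7a and Wnt7b, 6.25% against a background of 1.34%. On single arrays, 3 members passed 2-fold in the genotype comparison (9.38%, background 1.67%) and 5 in the treatment comparison (15.6%, background 2.11%). With such small counts, the shares rest on 1 to 5 genes each.

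**Figure D2:**
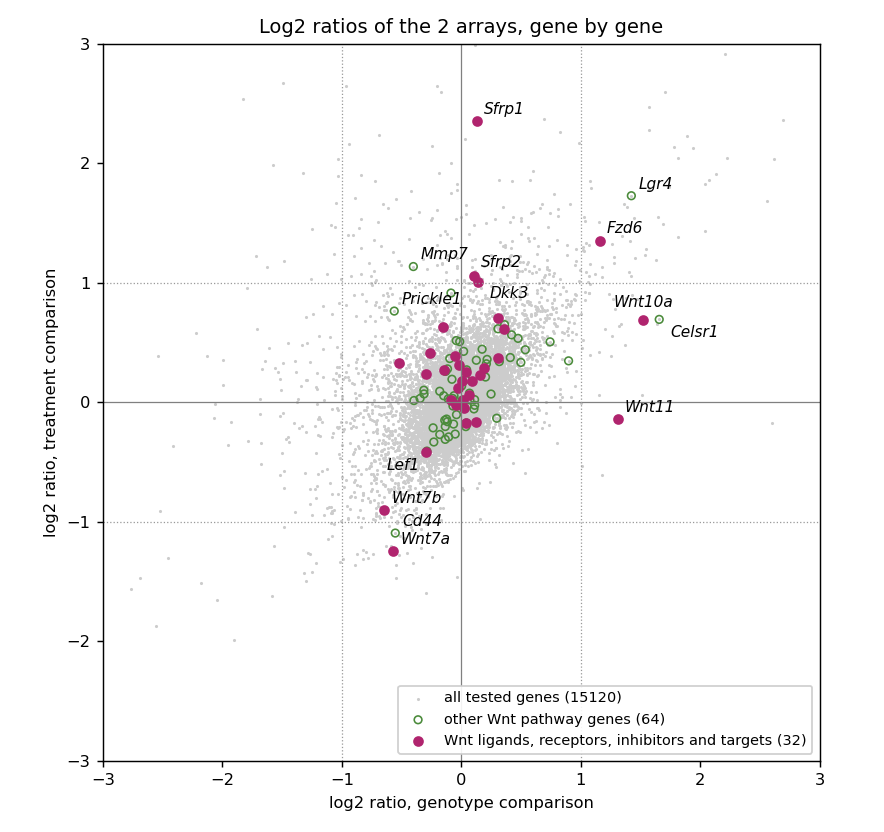
Log2 ratio in the genotype comparison (x axis) against the treatment comparison (y axis) for all tested genes (grey), the Wnt ligands, receptors, inhibitors and targets (filled) and other Wnt pathway genes (open); dotted lines mark 2-fold, and 8 genes lie outside the range of ±3. Fzd6, Wnt10a, Lgr4 and Celsr1 sit at the upper right, Wnt7a, Wnt7b and Cd44 at the lower left, and Sfrp1 and Wnt11 each lie along one axis.

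Among the ligands, Wnt10a was brighter with Sox9 and the paralogs Wnt7a and Wnt7b were dimmer, on each array. Each of these genes has only 1 probe on the array, so that no second probe could be compared. Wnt10a, a canonical ligand of skin appendages and teeth, had a brightness of 1306 in wild-type against 456 in the deleted cells, and of 580 in vehicle-treated floxed cells against 360 in the deleted cells. For Wnt10a the Sox9-expressing RNA was the brighter on each array, but the wild-type RNA stood well above the vehicle RNA. Its log2 ratios of 1.52 and 0.69 gave a mean of 1.10 ± 0.59 (SD over n = 2 arrays, limma adjusted p = 0.176).

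Wnt7a and Wnt7b are closely related ligands of epithelia that can signal through β-catenin. Wnt7b was at 712 in wild-type and 628 in vehicle-treated floxed cells, and at 1114 and 1173 in the 2 deleted RNAs. Wnt7a was at 198 and 140 with Sox9 and at 293 and 333 without it. For both genes the deleted RNA was the brighter on each array, a direction shared by 33.7% of all genes tested. The log2 ratios of Wnt7b were -0.64 and -0.90, a mean of -0.77 ± 0.18 (SD over n = 2 arrays, limma adjusted p = 0.117). Those of Wnt7a were -0.57 and -1.25, a mean of -0.91 ± 0.48 (limma adjusted p = 0.179). Neither mean passed the adjusted threshold. On the scanner software's processed signals the mean of Wnt7a was -1.47, and with median centring that of Wnt7b was -0.49.

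Wnt4, Wnt5a and Wnt5b, ligands known mostly for signaling without β-catenin, lay slightly higher with Sox9 on both arrays. Wnt4 was at 1609 and 1518 with Sox9 and at 1302 and 1173 without it, a mean log2 ratio of 0.34 ± 0.05 (SD over n = 2 arrays, limma adjusted p = 0.185). Wnt5a was at 214 and 239 against 187 and 196, a mean of 0.24 ± 0.07 (limma adjusted p = 0.256). In both genes the differences were small, and 33.8% of all genes tested were higher with Sox9 on both arrays. Wnt5b was at 154 and 194 against 125 and 119, with log2 ratios of 0.31 and 0.71 (mean 0.51 ± 0.28, limma adjusted p = 0.204). A second probe of Wnt5b gave 0.11 and 0.31, so that its 2 probes agree in direction and not in size. On the scanner software's processed signals the mean of Wnt5b was 1.38, past 2-fold on both arrays (1.33 and 1.42), and that of Wnt5a 0.38. With median centring Wnt4 and Wnt5a had means of 0.64 and 0.42.

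Wnt11, a ligand of cell movement and polarity, differed between the arrays and was singled out after its values were seen. It was at 434 in wild-type, against 175 in the deleted cells of that array, 187 in vehicle-treated floxed cells and 206 in the other deleted RNA. Only the wild-type RNA stood apart, and the log2 ratios were 1.31 and -0.14. Its mean of 0.58 became 1.09 on the scanner software's processed signals. The remaining tested ligands, Wnt2, Wnt6 and Wnt9a, had mean log2 ratios between -0.07 and 0.05. The 2 tested probes of Wnt9a disagreed, with 0.04 and -0.17 for the brighter and 0.39 and 0.28 for the other.

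Among the receptors, Fzd6 stood apart, with the largest mean log2 ratio of the 11 tested. Fzd6 is a Frizzled receptor known for its part in epithelial planar polarity, with Celsr and Vangl proteins. It has only 1 probe on the array, and was at 1985 in wild-type and 2026 in vehicle-treated floxed cells, and at 890 and 793 in the deleted RNAs. The 2 Sox9-expressing RNAs were thus nearly equal and more than 2-fold above both deleted RNAs. Its log2 ratios were 1.16 and 1.35, a mean of 1.26 ± 0.14 (SD over n = 2 arrays, 95% interval 1.00 to 1.51, limma adjusted p = 0.0864). Over the alternatives in processing that used both arrays the mean lay between 1.26 and 1.56. The adjusted p passed 0.05 on the authors' processed values (limma adjusted p = 0.0447) and with median centring in place of loess (limma adjusted p = 3.7e-06), and reached 0.291 with the arrays scaled to 1 spread.

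**Figure D3:**
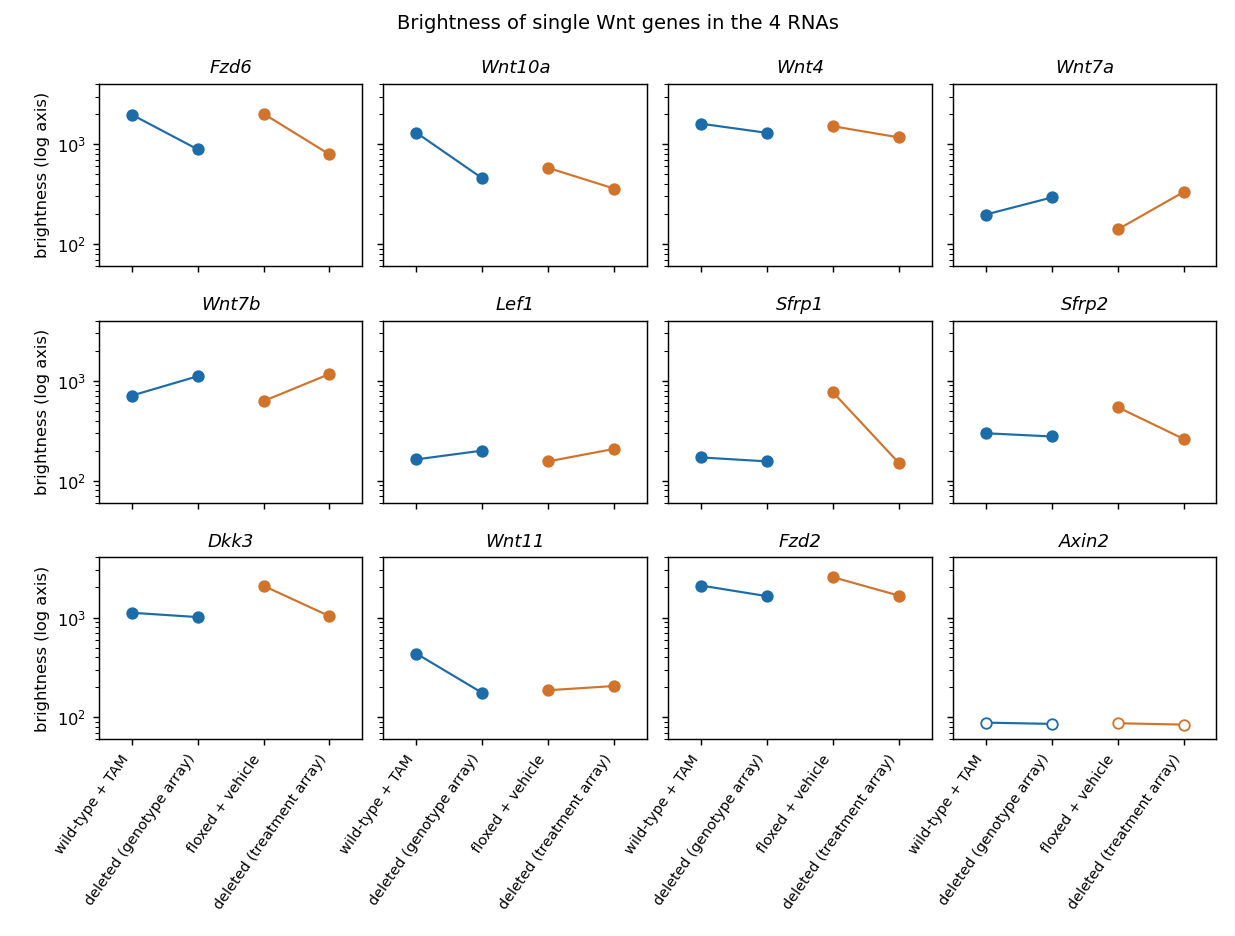
Brightness (y axis, log scale, normalized signal of the brightest probe) of 12 Wnt genes in the 4 RNAs (x axis); lines join the 2 RNAs of an array, and open points are not well above background. Fzd6 is at 1985 and 2026 with Sox9 and at 890 and 793 without it, Sfrp1 is at 770 in the vehicle-treated floxed cells alone, and Axin2 is open in all 4 RNAs.

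Of the other receptors, Fzd2 was at 2091 and 2538 with Sox9 and at 1636 and 1658 without it. Both Sox9-expressing RNAs were brighter, and the mean log2 ratio was 0.48 ± 0.18 (SD over n = 2 arrays, limma adjusted p = 0.175), or 0.81 with median centring. Fzd1 was split between the arrays, at -0.52 (genotype comparison) and 0.33 (treatment comparison). The tested receptors Fzd3, Fzd4, Fzd5, Fzd7, Fzd8 and Fzd10 had means between -0.01 and 0.19. The co-receptor Lrp5 was at 436 and 511 with Sox9 and at 401 and 572 without it, so that the groups overlapped, and its mean of -0.02 (95% interval -0.31 to 0.27) turned to 0.24 with median centring. Lrp6 was at 208 and 193 against 215 and 196, a mean of -0.03 (95% interval -0.24 to 0.17), which turned to 0.13 with median centring and to 0.04 with its 2 probes averaged. Across the 11 tested receptors the median of the mean log2 ratio was 0.09.

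The 9 secreted inhibitors are the Sfrp, Dkk and Wif1 genes, grouped by symbol, and whether each inhibits Wnt signaling here was not tested. Of the 9, 6 were tested on the arrays and 0 of these passed in limma even at an unadjusted p under 0.05. Of the 6, 3 (Sfrp1, Sfrp2 and Dkk3) were past 2-fold in the treatment comparison. The median log2 ratio of the 6 tested inhibitors was 0.82 on the treatment array and 0.06 on the genotype array. On the treatment array the 6 values were widely spread, from 0.02 (Sfrp4) to 2.35 (Sfrp1). The 4 tested secreted genes of the wider pathway list, Frzb and Apcdd1 among them, had medians of -0.08 and -0.19 on these arrays. Sfrp1, a Frizzled-related protein that binds Wnts, was at 770 in vehicle-treated floxed cells, against 171 in wild-type and 156 and 151 in the deleted RNAs. Sfrp2, its relative, was at 546 against 299, 277 and 262, and Dkk3, a Dickkopf family member, at 2077 against 1116, 1010 and 1032. In all of these, which were singled out after their values were seen, the vehicle-treated RNA alone stood apart and the wild-type RNA was close to both deleted RNAs.

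The log2 ratios of Sfrp1 were 0.13 and 2.35, a mean of 1.24 ± 1.57 (SD over n = 2 arrays, limma adjusted p = 0.364), smaller than the spread between arrays. With median centring the mean of Sfrp1 was 1.47 and passed the threshold (limma adjusted p = 2e-05). With loess the log2 ratios of Sfrp2 were 0.11 and 1.06 (mean 0.58 ± 0.67) and those of Dkk3 0.14 and 1.01 (mean 0.58 ± 0.61, or 0.88 with median centring). Dkk2 gave -0.15 and 0.63. Wif1 gave -0.15 and 0.27 and Sfrp4 gave 0.01 and 0.02, and in wild-type cells both were at background. A second Sfrp1 probe was not well above background in any of the 4 RNAs.

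The summed stromal and muscle markers moved on both arrays, lower with Sox9 in the genotype comparison and higher in the treatment comparison. Sfrp1, Sfrp2 and Dkk3 passed 2-fold in the treatment comparison alone. The summed brightness of the 10 fibroblast markers, all above background in the 4 RNAs, was 95317 in vehicle-treated floxed cells against 60676 in the deleted RNA of that array. In the genotype comparison it was 43896 in wild-type cells against 67392 in the deleted cells. Col1a1, a fibroblast collagen, was at 8960 in the vehicle-treated RNA, 2117 in wild-type and 5073 and 4378 in the deleted RNAs. The log2 ratio of the sum over the 5 smooth muscle markers was -0.55 in the genotype and 0.52 in the treatment comparison, and over the 7 skeletal muscle markers -1.04 and 1.92. Skeletal muscle sums ran from 1073 in wild-type cells to 6324 in vehicle-treated floxed cells, and 2 of the 7 were above background in all 4 RNAs. Among the inhibitors, Dkk2 and Wif1 had the signs of the summed markers on both arrays, whereas Sfrp1, Sfrp2, Dkk3 and Sfrp4 had log2 ratios between 0.01 and 0.14 in the genotype comparison. The part of stromal and muscle RNA in the inhibitors' values was not tested.

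**Figure D4:**
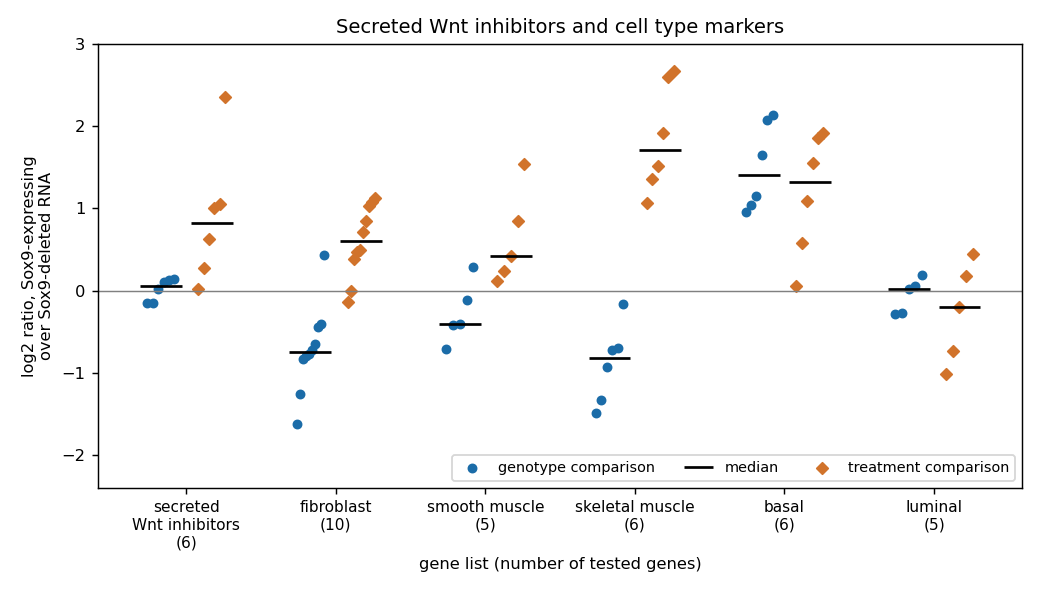
Log2 ratio (y axis) of each tested secreted Wnt inhibitor and of each tested marker of 5 cell types (x axis), in the genotype comparison (circles) and the treatment comparison (diamonds), with medians as black lines. The inhibitors have medians of 0.06 and 0.82, fibroblast markers of -0.74 and 0.60, and basal markers of 1.40 and 1.32.

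The basal and luminal lists also differed. The summed basal markers, Krt5 and Krt14 among them, had log2 ratios of 1.64 and 1.46, and the summed luminal markers -0.08 and -0.54. Fzd6 and Wnt10a thus had the sign of the summed basal list on both arrays. Wnt7a and Wnt7b were lower with Sox9 on both arrays, but the luminal list gave no stable sign to set beside them. The 6 basal markers were each higher with Sox9 on both arrays, whereas the luminal markers had no common sign. Of the 5 luminal markers tested, 2 were higher on both arrays, 2 lower on both and 1 split. Their median log2 ratios were 0.01 in the genotype and -0.20 in the treatment comparison. With median centring the median of their mean log2 ratio turned from -0.25 to 0.26. The part of these cell types in the Wnt values was not tested. Of the endothelial and immune lists, Pecam1, Tek, Ptprc, Emr1 and Cd3e were not well above background in any of the 4 RNAs. Their summed log2 ratios were -0.01 and -0.11 for 4 endothelial and -0.34 and -0.40 for 5 immune markers.

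The canonical targets gave no common direction. Axin2, a negative regulator and widely used readout of β-catenin, was not well above background in any RNA (brightness 84.5 to 88.4), so that no difference in it could be measured. Lef1, a Tcf/Lef factor and itself a Wnt target, was at 164 and 156 with Sox9 and at 200 and 208 without it, a small difference. Its mean log2 ratio was -0.35 ± 0.09 (SD over n = 2 arrays, limma adjusted p = 0.188), and a second tested probe gave -0.09 and -0.35. The mean was -0.74 on the scanner software's processed signals and -0.21 with median centring. Tcf7, which encodes the factor Tcf1, was at 176 and 171 against 166 and 151, a mean of 0.13 ± 0.06 (95% interval -0.08 to 0.35), with 2 probes in the same direction.

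The feedback inhibitors Nkd1 and Nkd2 differed in sign between the arrays. Nkd1 was at 160 and 217 with Sox9 and at 167 and 166 without it (log2 ratios -0.06 and 0.39). Nkd2 was at 396 and 552 against 475 and 414 (log2 ratios -0.26 and 0.42). In both genes the vehicle-treated floxed RNA was the brightest of the 4, and limma adjusted p-values were 0.567 and 0.854.

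Promoter windows of 250 bases before the start site were taken from RefSeq (GRCm38.p6) for 32 of the 48 members, 39 windows in all. They were searched on both strands for the SOX-type words ACAAAG and ACAATG and for the Tcf/Lef-type word TCAAAG. The word ACAAAG stood in 6 of the 39 windows, where 16.5% of all 32851 windows hold it, ACAATG in 3 (10.7% of all) and TCAAAG in 5 (13.8% of all). Lef1 has 4 windows, of which the one at chr3:131156044-131156293 on the plus strand held all of these words and the others held none. The window with matches is shown with these in capitals, beside the Wnt7a window at chr6:91411354-91411603 on the minus strand, which held none. These are the genes lower with Sox9 on both arrays that have windows.
Lef1: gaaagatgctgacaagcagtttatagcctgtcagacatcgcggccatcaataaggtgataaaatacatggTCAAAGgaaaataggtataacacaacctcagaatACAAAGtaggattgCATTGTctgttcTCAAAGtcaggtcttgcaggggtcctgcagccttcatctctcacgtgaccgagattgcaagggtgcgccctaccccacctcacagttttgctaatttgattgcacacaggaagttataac
Wnt7a: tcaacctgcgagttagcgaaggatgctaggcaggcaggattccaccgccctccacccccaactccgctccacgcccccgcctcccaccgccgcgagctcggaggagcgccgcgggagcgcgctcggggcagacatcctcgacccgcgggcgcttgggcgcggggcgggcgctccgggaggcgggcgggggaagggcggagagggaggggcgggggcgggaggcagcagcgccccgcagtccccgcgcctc
The capitals mark 4 matches in Lef1, which do not overlap, 2 of them to TCAAAG. A match is a stretch of letters, and binding was not measured.

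The members not tested were mostly at background. Wnt1, Wnt2b, Wnt3, Wnt3a, Wnt8a, Wnt8b, Wnt9b, Wnt10b and Wnt16, the inhibitors Dkk1, Dkk4 and Sfrp5, the agonist Rspo2, and Axin2 were not well above background in any RNA. Fzd9 passed in the deleted cells of the genotype comparison alone and Rspo3 in vehicle-treated floxed cells alone. Of the R-spondins only Rspo1 was tested, with log2 ratios of -0.30 and 0.24. In the members not tested, a difference was not detectable at their signal.

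Beyond these members, a list of 77 other Wnt pathway genes was read, of which 76 were on the array and 64 were tested. In limma 0 passed at an adjusted p under 0.05, and 21 at an unadjusted p under 0.05 (32.8%, against 19.5% of all genes tested), 16 higher and 5 lower with Sox9. The median of their mean log2 ratio was 0.07, and 26 were higher on both arrays, 15 lower on both and 23 split, so that 64.1% had one direction, against 67.6% of all genes tested. At least 0.5 on both arrays was reached upward by Lgr4, Celsr1 and Vangl2 (4.69%, background 1.88%) and downward by Cd44 (1.56%, background 1.34%). Lgr4, a receptor for R-spondins, was at 1259 and 1288 with Sox9 and at 469 and 388 without it. Its mean log2 ratio was 1.58 ± 0.22 (SD over n = 2 arrays, limma adjusted p = 0.0864), and it alone of the list was past 2-fold on both arrays.

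Celsr1 and Vangl2 are membrane proteins of planar cell polarity. Celsr1 was at 2235 and 1074 with Sox9 and at 709 and 664 without it, with log2 ratios of 1.66 and 0.69. Vangl2 was at 932 and 749 against 557 and 527, with 0.74 and 0.51. As in Wnt10a, the wild-type RNA was the brightest of the 4 in both genes. Of the 8 tested polarity genes 4 were higher on both arrays and 1 was lower on both, where 33.8% of all genes tested were higher on both and 33.7% lower on both.

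Cd44, a cell surface receptor and β-catenin target, lay lower with Sox9, at 7537 and 5627 against 11054 and 12010 (log2 ratios -0.55 and -1.09, limma adjusted p = 0.164). The targets Ccnd1 and Myc had means of -0.35 and -0.22, and Jun and Tnfrsf19, also listed as targets, had values of 0.22 and 0.17 in the genotype and 0.36 and 0.45 in the treatment comparison. Of the 12 tested targets 3 were higher on both arrays, 3 were lower on both and 6 were split. Ctnnb1, which encodes β-catenin, had a mean of -0.13 ± 0.01 (limma adjusted p = 0.421). Of the 10 tested nuclear genes of the pathway, 7 were higher and 3 lower on both arrays, beside the 67.6% of all genes with one direction, with Tcf7l1 at 0.54 and 0.44 and Tcf7l2 at 0.31 and 0.62. The stem cell receptor Lgr5 was not well above background in any RNA.

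**Figure D5:**
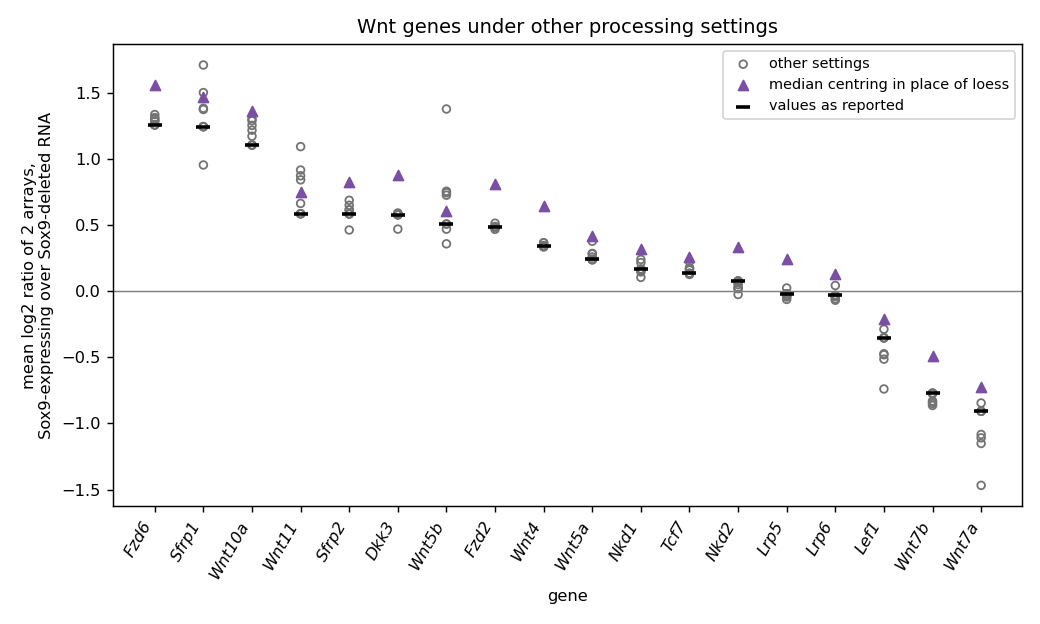
Mean log2 ratio of the 2 arrays (y axis) of 18 Wnt genes (x axis) as reported (black ticks), with median centring in place of loess (triangles) and under the other settings that use both arrays (open circles). Fzd6, Sfrp1 and Wnt10a stay above 0 and Wnt7a, Wnt7b and Lef1 below 0 in each, while Nkd2, Lrp5 and Lrp6 cross 0.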

How the data were processed

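Expression in prostaspheres was measured on 2 dual-channel Agilent arrays of 1 slide and 1 scan. The authors deposited scanner files with the mean intensity and local background intensity of each spot, not normalized, and log10 ratios (Cy5 over Cy3) that the software took from its processed intensities, and a table of processed values that proved to be log2 ratios (slope of 3.14 on the log10 ratios of both arrays). Per the labels, limma was used for these.

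Here intensities were background-corrected with normexp (offset 50, which understates the log2 ratios of dim probes) and normalized by loess within arrays, with control spots at weight 0 (limma 3.58.1, R 4.3.3). Outlier spots (126 and 130) were left out, and spots were averaged to 41174 probes. Probes were tested if most of their spots were well above background in the Cy5 channel of each array, or in the Cy3 channel of each (22731, after 7 that lacked a value on an array). The mean of the 2 arrays was tested against 0 with lmFit and eBayes, two-sided, with Benjamini-Hochberg adjustment. This leaves 1 residual degree of freedom, to which eBayes adds 2.77 prior degrees of freedom drawn from all tested probes. The p-values measure only the spread between these arrays, pooled in part over probes, and the comparisons of the arrays also differ in design. Each gene is represented by its brightest probe. Brightness is the loess-normalized intensity of a channel, with Aquantile between arrays, and apart from the marker sums was not combined or compared between probes. A marker sum adds the brightness of the brightest probe of each listed gene, so that bright probes weigh most in it. All 48 member symbols matched RefSeq, as did the 59 of 59 NM accessions of their 67 probes. A pair of pathway genes carry older symbols on the array (Gpr177 for Wls and Tcf3 for Tcf7l1).

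The members and lists were chosen with earlier results of these data known. Values were given in full for members with at least 0.5 (log2) in one direction on both arrays or in opposite directions, for those with an unadjusted p under 0.05, and for the targets and co-receptors. Alternatives covered background correction, normalization, filter, probe choice, starting values, test and leaving out an array. Code was tested on simulated data. Some items are not reported here. Figures used Python 3.11.15 and matplotlib 3.10.9.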

Additional observations from a re-analysis of the deposited data

Results flagged for a closer look

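Prickle1, a planar polarity gene of the wider Wnt pathway list, had log2 ratios beyond 0.5 in opposite directions on the 2 arrays. It was at 404 in wild-type cells against 596 in the deleted cells of the genotype comparison, or -0.56 on the log2 scale. In the treatment comparison it was at 930 in vehicle-treated floxed cells against 547 in the deleted cells, a log2 ratio of 0.76. The difference between the comparisons was not tested, as each has 1 array. The 10 fibroblast markers had medians of -0.74 and 0.60 on the same arrays, and their part in this value was not tested.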

How the results depend on the processing

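The 2 RNAs of each array were paired through its log2 ratio, and neither comparison could be tested by itself because each has 1 array. Of the named members' values under the alternatives, 153 from both arrays kept direction and side of the threshold, 4 passed it and 5 turned sign, and of those on 1 array alone, which have no test, 32 kept direction and 4 turned. Sfrp1 had a larger mean than Fzd6 without background subtraction (1.38 against 1.30), with an offset of 10, on processed signals (1.71 against 1.33) and on the authors' values (1.37 against 1.31). Against 2 probes called, limma gave 0 without background subtraction, with an offset of 10, on the scanner software's processed signals and with arrays scaled to 1 spread (4329, 3515, 3694 and 3480 at an unadjusted p under 0.05), as did the methods' t-test (1925 unadjusted). The authors' processed values gave 68 probes, with 1 member (Fzd6) and 1 other pathway gene, and median centring gave 522 (491 higher), with 3 members (Fzd6, Wnt10a and Sfrp1) and 4 pathway genes. Median centring moved the median mean log2 ratio of all probes to 0.18 (0.38 in the treatment comparison) and that of the members to 0.28. Members past 2-fold on both arrays were 2 with processed signals, 2 with median centring and 0 with scaled arrays. On 1 array alone they were 5 (treatment comparison) and 3 (genotype comparison), since 1 array then decides. Lrp5 turned to 0.24 with median centring, 0.023 with scaled arrays and 0.12 on the genotype array alone (-0.16 on the treatment array), and Lrp6 to 0.13 with median centring and 0.042 with probes averaged. Nkd2 turned to -0.026 with scaled arrays, and lay at -0.26 on the genotype array and 0.42 on the treatment array alone, Nkd1 at -0.057 and 0.39, and Wnt11 at 1.31 and -0.14. With median centring the median of luminal markers turned to 0.26, of fibroblast markers to 0.29 and of endothelial markers to 0.057. The cause of these was not tested. The number of arrays and the signal of the 14 members at background limit what could be measured.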
